A study of Mus musculus with 39 samples.

Results

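The genes described here are 36 genes of glucose use and of the transcriptional response to low oxygen, taken by name from a count table of 29980 genes. They fall into 19 genes of glucose uptake, glycolysis and lactate formation or export, and 17 genes of the hypoxia-inducible factor (HIF) response: the factor subunit Hif1a, 2 of its prolyl hydroxylases, 3 kinases that steer carbon flow and 11 other HIF targets. All 36 passed the filter on low counts, which left 13780 genes for testing. The libraries come from C2C12, a mouse myoblast line that fuses into myotubes when serum is reduced. Wild-type cells (WT) and cells in which CRISPR/Cas9 was guided to the first exon of Flnc, the gene of the muscle actin crosslinker filamin C (KO), were sampled in growth medium at day 0 and after 1, 2, 4 and 6 days in low-serum medium with horse serum. There were 10 groups by genotype and day, with 4 libraries each numbered 1, 3, 4 and 5, except for 3 (1, 3 and 5) in KO day 2, so 39 libraries were used. Both lines were grown in high-glucose medium, refreshed daily during differentiation, and the labels name no change of oxygen. The labels do not say whether the KO cells are 1 clone or whether replicates are separate cultures, so p-values measure only the spread between these libraries, which may be technical, and a difference between the lines that arose outside Flnc cannot be told apart from one that depends on it.

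Glycolysis splits glucose into pyruvate, and lactate dehydrogenase turns pyruvate into lactate, which leaves the cell through monocarboxylate transporters. The α subunits of HIF are controlled mainly at the protein level: with oxygen present, the EGLN prolyl hydroxylases mark them for degradation, and without it they stay, pair with ARNT and bind DNA at a core of ACGTG or GCGTG. Many enzymes of glycolysis are HIF targets as well as housekeeping genes, so the division into 2 classes used here follows function, not regulation. In skeletal muscle, glycolysis supplies ATP for brief effort, and differentiating myoblasts change both their isozymes and their use of mitochondria.

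Library totals ranged from 6838281 to 28902526 counts, and Flnc in the KO stood at 4.54% to 8.10% of its WT level over the 5 days. KO day 1 replicate 3 had the lowest mean correlation with the rest of its group (r = 0.929). WT day 0 replicate 4 (r = 0.955) was the lowest of its own group, near KO day 1 replicate 1 and KO day 4 replicate 3 (both r = 0.954). The libraries said below to stand apart are KO day 1 replicate 3 and WT day 0 replicate 4, a choice made after seeing the data. All 12 myoblast and myotube markers were detected in every group, and their summed level at day 6 was 18380 to 24101 CPM (counts scaled to 1e+06 per library) in WT libraries and 6960 to 10847 CPM in KO libraries. Abundant genes such as Acta1 and Myh3 weigh most in this sum. The markers called lower in KO numbered 4, 7, 7 and 6 of 12 at days 0, 1, 2 and 4, and those called higher 0, 1, 1 and 1. Their median log2 differences were -1.12, -1.60, -1.91, -1.18 and -0.77 over the 5 days. Of all genes, 9.09%, 9.93%, 10.3%, 14.2% and 14.4% were called lower on these days. At day 6, 3 of the 12 were called lower in KO and 1 higher, with 10 differences negative and 2 positive. Myod1 (109 CPM in WT and 228 in KO) and Tnnt1 (486 and 713) had higher means in KO. The 10 cell cycle markers summed to 2481 to 3920 CPM in WT and 2156 to 3757 CPM in KO libraries at day 0, and to 256 to 331 and 124 to 159 CPM at day 6. Rrm2, which averaged 191 CPM in WT and 44.1 in KO at day 6, made up most of that day 6 gap. Of the 10 markers 1 was called at day 6, lower in KO, and 4 differences were positive and 6 negative. Mitochondrial genes took 2.89% to 3.47% of counts in WT and 4.06% to 5.97% in KO libraries at day 6. Of markers of other cell types, the 5 endothelial ones summed to 0 to 2.13 CPM per library and the 6 immune ones to 0.224 to 7.48 CPM, mostly Cd68, and Tie1, Adgre1, Cd3e, Snap25, Lep, Cfd, Cidec and Ibsp had no count in any library. The 7 adipocyte markers, nearly all Pparg, averaged 29.7 CPM in WT and 30.0 in KO at day 0, and 15.4 and 9.17 at day 6. The 6 osteoblast markers, mostly Runx2, averaged 50.7 and 39.7 CPM at day 0, and 5.56 and 13.4 at day 6, when 2 of the 4 tested were called higher in KO. The 5 neuronal ones, nearly all Tubb3 and Map2, summed to 194 to 501 CPM in WT and 62.9 to 120 CPM in KO libraries at day 0. These 2 genes differed in opposite directions, Tubb3 averaging 290 CPM in WT and 46.1 in KO at day 0 and Map2 26.0 and 38.9. Of the 3 neuronal markers tested, 1 was called at day 0, lower in KO, and 2 differences were positive. The part of these differences in the results below was not tested.

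The DNA before the start sites of the members, many of them chosen as known HIF targets, holds the HIF core more often than that of all genes in the reference. RefSeq promoter windows (GRCm38.p6) were matched to 34 of the 36 members, and the 250 bases upstream of each start were searched for ACGTG and for GCGTG on both strands, counting overlapping matches. ACGTG was present in 24 of 50 member windows (48%), against 16.6% of 32851 windows of all genes, and in 38.5% of windows of the glycolysis class and 58.3% of the HIF class. GCGTG was present in 52% of member windows and 28.2% of all windows. The windows of all genes were not limited to expressed genes or matched in base composition. Some members have more than 1 window, and these can overlap. What the higher share reflects was not tested. Among the 20 matched members that differed between KO and WT on at least 1 day, 13 had ACGTG, as did 8 of the 14 that differed on no day. The stretches below are shown because their genes carry some of the results that follow: the strongly lower Slc16a3, Hk2, Car9, Adm and Egln3, the higher Ldhb, the day 1 responder Bnip3, and Pgk1, a housekeeping enzyme called on no day. They are read 5′ to 3′ on the gene's strand, capitals mark ACGTG or GCGTG in either orientation, and parts that overlap an annotated exon were left off, except for Car9, of which only the 30 bases around its match are given. A match describes these letters and is not a binding site. Pfkp and Aldoc, among the lower members not shown, had GCGTG but no ACGTG in their windows.
Slc16a3 chr11:120948817-120949052 (+ strand): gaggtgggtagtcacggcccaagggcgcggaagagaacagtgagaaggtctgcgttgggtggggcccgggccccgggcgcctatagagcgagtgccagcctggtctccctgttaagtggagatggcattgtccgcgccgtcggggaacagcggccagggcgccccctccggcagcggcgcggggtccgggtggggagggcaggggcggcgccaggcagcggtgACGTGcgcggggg
Hk2 chr6:82774455-82774704 (- strand): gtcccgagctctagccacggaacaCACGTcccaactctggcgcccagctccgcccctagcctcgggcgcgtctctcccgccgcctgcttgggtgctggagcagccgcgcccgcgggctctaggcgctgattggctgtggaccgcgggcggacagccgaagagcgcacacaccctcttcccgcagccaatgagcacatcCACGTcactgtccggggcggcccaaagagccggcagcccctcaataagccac
Ldhb chr6:142507958-142508207 (- strand): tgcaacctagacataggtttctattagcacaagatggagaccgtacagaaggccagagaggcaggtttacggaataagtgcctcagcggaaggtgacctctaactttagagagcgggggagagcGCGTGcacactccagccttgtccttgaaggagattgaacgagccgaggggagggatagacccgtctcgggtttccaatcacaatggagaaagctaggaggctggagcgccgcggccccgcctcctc
Pgk1 chrX:106186850-106187099 (+ strand): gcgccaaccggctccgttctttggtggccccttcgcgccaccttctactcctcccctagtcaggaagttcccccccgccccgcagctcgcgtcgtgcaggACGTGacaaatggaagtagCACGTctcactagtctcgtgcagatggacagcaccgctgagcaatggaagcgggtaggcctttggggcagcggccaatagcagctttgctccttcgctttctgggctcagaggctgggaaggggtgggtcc
Car9 chr4:43506996-43507025 (+ strand): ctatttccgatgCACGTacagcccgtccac
Adm chr7:110627407-110627656 (+ strand): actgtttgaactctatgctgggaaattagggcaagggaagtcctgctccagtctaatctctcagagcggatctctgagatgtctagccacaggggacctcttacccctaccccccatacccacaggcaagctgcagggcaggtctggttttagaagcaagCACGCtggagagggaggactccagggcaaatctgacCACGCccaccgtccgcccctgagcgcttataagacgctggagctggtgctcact
Egln3 chr12:54203875-54204124 (- strand): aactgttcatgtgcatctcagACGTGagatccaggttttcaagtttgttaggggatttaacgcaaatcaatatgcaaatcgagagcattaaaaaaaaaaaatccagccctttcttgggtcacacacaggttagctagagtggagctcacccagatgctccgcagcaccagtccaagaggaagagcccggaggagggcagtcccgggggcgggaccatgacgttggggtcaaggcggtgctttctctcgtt
Bnip3 chr7:138909520-138909756 (- strand): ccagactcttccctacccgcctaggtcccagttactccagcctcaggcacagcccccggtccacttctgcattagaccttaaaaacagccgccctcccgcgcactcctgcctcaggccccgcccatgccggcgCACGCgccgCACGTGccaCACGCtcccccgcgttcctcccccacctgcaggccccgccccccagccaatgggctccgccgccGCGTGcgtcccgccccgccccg

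**Figure D1:**
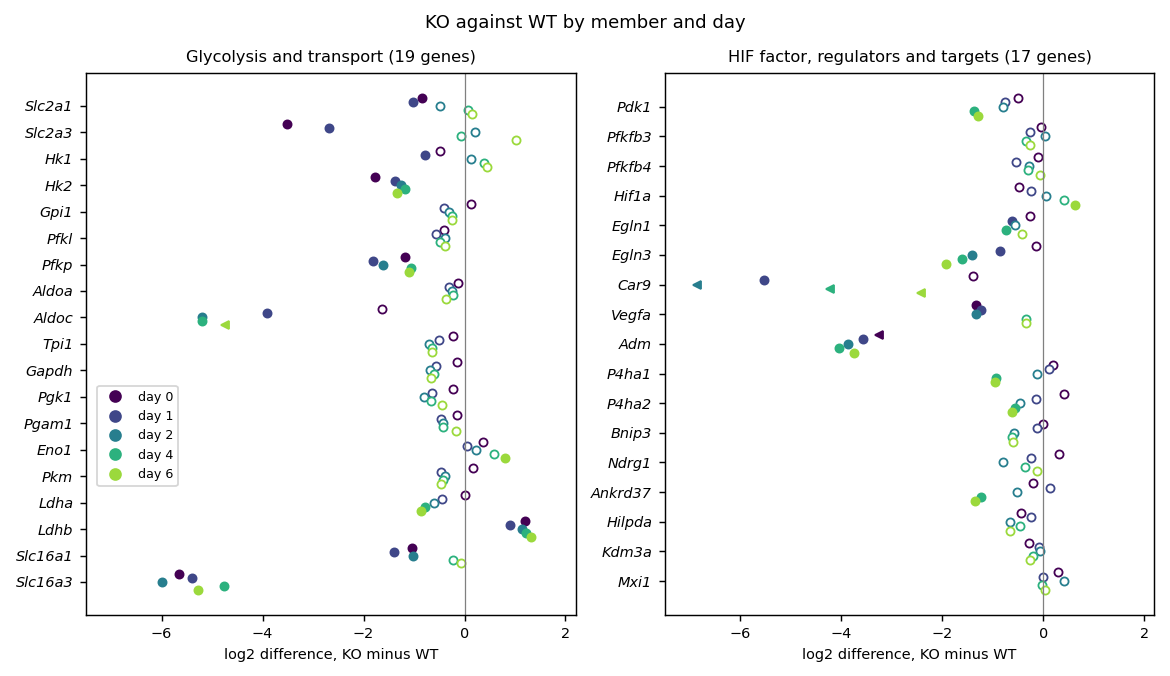
Log2 difference of KO against WT (edgeR) on the horizontal axis for each member and day; filled points passed an adjusted p under 0.05, open points did not, and triangles mark lower bounds of the fold where the KO group had 0 counts. Most points lie left of 0, with Slc16a3 between -6.00 and -4.76 on every day, and Ldhb is the only member to the right with filled points on all 5 days.

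KO cells held less RNA of many members than WT cells on every day, and of few members more. A member was called when its Benjamini-Hochberg adjusted p in edgeR's quasi-likelihood test, taken over all 13780 genes, was under 0.05. At day 0, 8 members were lower in KO, where 9.09% of all tested genes were called lower, and 1 was higher (6.46% of all genes). The lower and higher members numbered 13 and 1 at day 1 (9.93% and 8.10% of all genes), 9 and 1 at day 2 (10.3% and 7.64%), 13 and 1 at day 4 (14.2% and 13.3%; 27.5% in either direction), and 12 and 3 at day 6 (14.4% and 14.5%; 28.9% in either direction). KO libraries lay wholly below WT libraries for 7, 12, 9, 11 and 13 members at days 0, 1, 2, 4 and 6, against 8.30%, 11.5%, 12.6%, 12.0% and 14.7% of all genes. They lay wholly above for 1, 0, 1, 1 and 3 members, against 9.03%, 7.03%, 14.8%, 15.3% and 19.2%. A joint test over the 5 days called 23 of 36 members, or 63.9%, against 44.7% of all genes. In RNA from whole cultures, less RNA per cell and fewer cells of the kind that express a gene cannot be told apart.

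The counts of lower members by class ran differently over the days, a difference that was not tested. Of the 19 glycolysis genes, 6, 8, 5, 5 and 5 were lower at days 0, 1, 2, 4 and 6, and of the 17 HIF genes 2, 5, 4, 8 and 7. The share of all genes called lower also rose over these days, at 9.09%, 9.93%, 10.3%, 14.2% and 14.4%. The median log2 difference of the glycolysis class was -0.23 at day 0, -0.57 at day 1, -0.48 at day 2, -0.43 at day 4 and -0.39 at day 6. That of the HIF class was -0.20, -0.25, -0.57, -0.57 and -0.61, while the median over all genes lay between -0.04 and 0.02. These medians are the same with groups at 0 counts set to their bound. Libraries of the same replicate number deviated together at days 0, 1, 2 and 4 by the rule given below, least clearly at day 0. With the number as a block within each day the lower members became 20 at day 1 and 16 at day 2, and the higher members 3 at day 4. The shares of all genes given above are from the model without the block. Those with the block are not given here, so whether the members rose more than other genes is not shown.

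**Figure D2:**
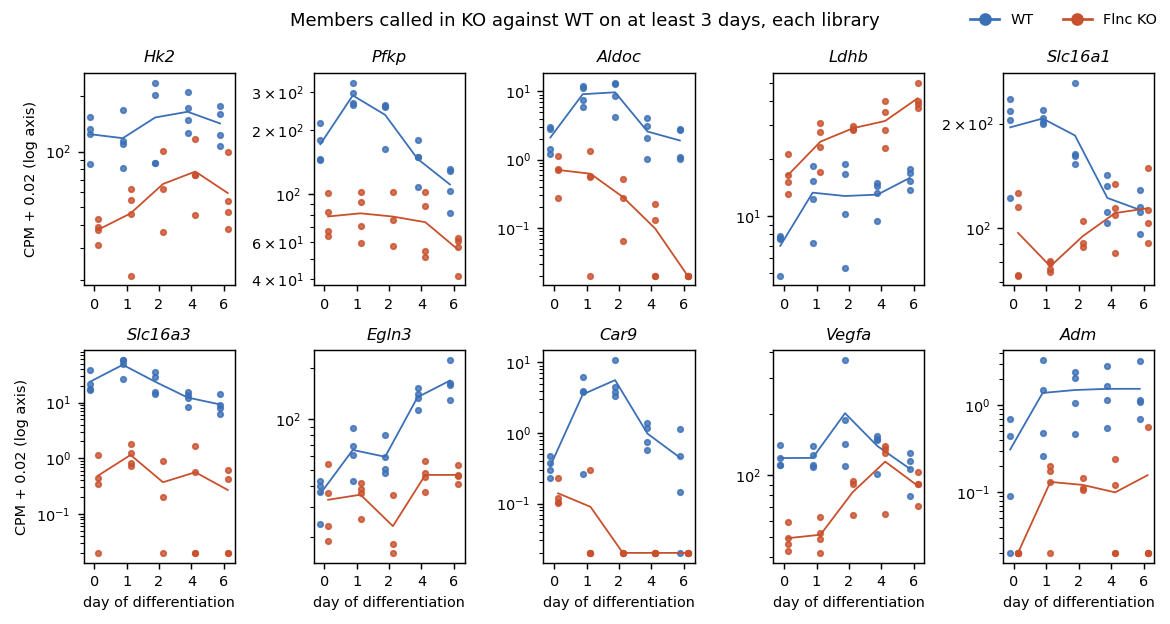
CPM plus 0.02 on a log axis for each library by day of differentiation, for the 10 members called in KO against WT on at least 3 days; lines join group means. WT and KO libraries of Pfkp and Slc16a3 do not overlap on any day, and all KO libraries are at 0 for Car9 from day 2 on and for Aldoc at day 6.

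Slc2a1 (GLUT1, the basal glucose transporter of most cells) was lower in KO at days 0 and 1. Slc2a1 stood at 205 CPM ± 40.3 (SD, n = 4) in WT and 119 ± 19.2 in KO at day 0 (log2 difference -0.84 with an SE of 0.19; adjusted p = 0.0211), and at 237 ± 46.9 and 114 ± 9.48 at day 1 (-1.03 ± 0.16 SE, adjusted p = 0.00354). No WT library overlapped a KO library on those days. The day 0 call was lost in 4 of 8 fits that left out 1 library (WT replicates 4 and 5, KO replicates 1 and 3; adjusted p 0.0522 to 0.0754). By day 6 the level was 65.1 ± 27.6 in WT and 75.7 ± 19.7 in KO (0.15 ± 0.32, adjusted p = 0.714). Slc2a3 (GLUT3, a high-affinity transporter) was near the limit of detection, at 1.66 CPM ± 0.538 in WT and 0.146 ± 0.122 in KO at day 0. It was called lower at days 0 and 1, and the day 1 call (-2.68, adjusted p = 0.0392) was lost when WT replicate 3 or 4, or else KO replicate 1, 3 or 5, was left out (adjusted p 0.0634 to 0.112), with no filter (0.0515) and with only the day 1 groups in the model (0.120).

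Hexokinases trap glucose by phosphorylation, and of the 2 members the inducible isozyme Hk2 was lower in KO on every day while the broadly expressed Hk1 was lower at day 1. At day 0, Hk2 read 125, 133, 85.7 and 154 CPM in WT replicates 1, 3, 4 and 5, and 43.1, 31.0, 37.6 and 38.7 in KO. At day 6 the values were 160, 178, 108 and 124 in WT and 99.7, 46.8, 53.9 and 37.7 in KO. Every KO library lay below every WT library on both days. Between them the means were 118 ± 36.1 and 46.1 ± 18.0 at day 1, 153 ± 78.4 and 66.8 ± 32.6 (n = 3) at day 2, and 165 ± 36.8 and 77.9 ± 29.4 at day 4, with overlap at day 2. The log2 differences were -1.77, -1.37, -1.26, -1.18 and -1.34 over the 5 days (adjusted p 0.000443, 0.00437, 0.0174, 0.00911 and 0.00310). The day 2 call was lost when WT replicate 1 or 4, or else KO replicate 3 or 5, was left out (adjusted p 0.0532 to 0.136) and with only the day 2 groups in the model (0.109). Hk1 was lower at day 1, with 527 CPM ± 78.2 in WT against 308 ± 106 (-0.78 ± 0.30, adjusted p = 0.0465), a call lost in 6 of 8 fits without 1 library (WT replicates 1, 4 and 5, KO replicates 3, 4 and 5; adjusted p 0.0632 to 0.182), with no filter (0.0707) and with only the day 1 groups (0.122). At day 6 it stood at 153 ± 25.7 and 219 ± 48.2 (0.44, adjusted p = 0.252).

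Phosphofructokinase commits sugar to glycolysis, and its platelet-type gene Pfkp was lower in KO on all 5 days, without overlap of libraries. Pfkp read 145, 147, 215 and 179 CPM in WT and 101, 63.5, 82.8 and 67.7 in KO at day 0, and 81.7, 128, 104 and 131 against 60.7, 56.6, 62.3 and 41.6 at day 6. Its difference was widest at day 1, at 290 CPM ± 32.6 against 81.6 ± 20.0 (-1.82 ± 0.20, adjusted p = 1.18e-06), and its other differences were -1.18, -1.62, -1.06 and -1.09. The exons of Pfkp share 748 bases with those of Pitrm1 on the opposite strand, and since the strand setting of the counting is not given, reads of the 2 genes may be mixed there. Pitrm1 itself ran from 171 to 84.8 CPM in WT and from 147 to 95.7 CPM in KO. The liver-type Pfkl was called on no day (-0.56 to -0.39).

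Aldolase splits the 6-carbon sugar, and of its 2 members Aldoc, the minor isozyme, was lower in KO from day 1 on. Aldoc read 7.51, 11.8, 5.97 and 11.0 CPM in WT and 0, 1.31, 0.561 and 0.538 in KO at day 1 (log2 difference -3.91 ± 0.82; adjusted p = 0.000114). At day 6 (adjusted p = 4.93e-05) WT libraries read 0.994, 1.07, 2.79 and 2.70, and all 4 KO libraries had 0 counts. With a floor of 3 counts over a group, Aldoc was at least 26.8-fold higher in WT at day 6 (17.3-fold without KO replicate 4). This and the other bounds are 0.5 times as large if each mate of a pair was counted on its own. The differences were -5.21 at day 2 and -5.20 at day 4 (adjusted p = 4.01e-05 and 4.23e-05), and WT and KO libraries overlapped on none of the 5 days. At day 0 the difference was -1.64 ± 0.48 (adjusted p = 0.0790), which DESeq2 called (0.0372). Aldoa, the muscle isozyme and the most abundant member per kb of exon (598 CPM per kb over all libraries), was called on no day.

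Of the enzymes of the common trunk, Gpi1, Aldoa, Tpi1, Gapdh, Pgk1, Pgam1 and Pkm were called on no single day, and their differences from day 1 on were all negative. Aldoa, Pkm, Tpi1 and Gapdh had the 4 highest levels per kb among members never called. Aldoa read 1150, 1169, 1886 and 1308 CPM in WT and 1786, 1327, 1152 and 978 in KO at day 0. At day 6 it read 1614, 1787, 2162 and 2201 against 1913, 1379, 1355 and 1676 (-0.37 ± 0.16, adjusted p = 0.340). WT and KO overlapped on all 5 days. Pkm, pyruvate kinase, read 3224, 3190, 5460 and 3959 in WT and 4860, 4532, 4684 and 4417 in KO at day 0. It read 1362, 1386, 1808 and 1772 against 1602, 933, 1109 and 1227 at day 6 (-0.46 ± 0.20, adjusted p = 0.198). These groups overlapped on every day too.

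Tpi1, triose phosphate isomerase, and Gapdh, the dehydrogenase often used as a reference gene, separated by day 6. Tpi1 read 852, 979, 1311 and 1341 CPM in WT and 800, 761, 630 and 833 in KO at day 6 (-0.64 ± 0.18, adjusted p = 0.124), against 1162, 1061, 1860 and 1342 and 1478, 1183, 1182 and 978 at day 0. Gapdh read 1460, 1430, 2066 and 1959 in WT and 1182, 1141, 988 and 1299 in KO at day 6 (-0.66 ± 0.16, adjusted p = 0.0832), against 1530, 1608, 2931 and 2146 and 1952, 2128, 2015 and 1649 at day 0. For both genes every KO library lay below every WT library at day 6 and the groups overlapped at day 0. With only the day 6 groups in the model, Tpi1 (-0.67, adjusted p = 0.0150) and Gapdh (-0.69, 0.0109) were lower at day 6. DESeq2 also called Gapdh lower at day 6 (-0.71, adjusted p = 0.0472), and Pgk1 at day 2 (-0.81, 0.0466) and day 4 (-0.70, 0.0499). The joint test over days called Gapdh (adjusted p = 0.0215), Pgk1, which makes the first ATP of the pathway (0.0136), and Tpi1 (0.0415; lost in 17 of 39 fits without 1 library, at 0.0506 to 0.0683). The joint test did not call Aldoa (0.595), Pkm (0.133), Gpi1 (0.423) or Pgam1 (0.206).

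With the replicate block within each day, several of these enzymes passed the test. Gapdh was then lower at day 1 (-0.65, adjusted p = 0.0116), day 2 (-0.78, 0.0105) and day 4 (-0.61, 0.0119). Tpi1 was lower at the same days (-0.65, -0.90 and -0.64; adjusted p = 0.0178, 0.00617 and 0.0132), as was Pgk1 (-0.76, -0.89 and -0.65; 0.0109, 0.0106 and 0.0207). Pkm (-0.49, 0.0416) and Gpi1 (-0.44, 0.0332) were lower at day 1 only among days 0 to 4. KO day 1 replicate 3, which stands apart, carried 2167 CPM of Gapdh against 990 to 1439 in the other KO libraries of that day. Without it and without the block, Gapdh (-0.90, adjusted p = 0.0306), Tpi1 (-1.03, 0.0133), Pgk1 (-1.12, 0.00310) and the lactate dehydrogenase gene Ldha (-0.98, 0.0102) were lower at day 1. Gapdh has near-identical copies in 77 other genes, of which 1 carried 24.4% as many counts as Gapdh, so its reads may be split between them.

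Eno1, enolase, was called higher in KO at day 6, but the joint test over days did not call it (adjusted p = 0.0920). Its level was 371 CPM ± 108 in WT and 677 ± 62.3 in KO at day 6 (log2 difference 0.80 ± 0.20; adjusted p = 0.0432), and no KO library overlapped a WT library. The call was lost in 7 of 8 fits without 1 library (all but WT replicate 4; adjusted p 0.0539 to 0.131), with DESeq2 size factors (0.75, 0.0605), with no filter (0.77, 0.0690) and with counts divided by 2 (0.77, 0.0533). At day 4 it was 556 ± 233 and 878 ± 319 (0.58, adjusted p = 0.158), and passed with the block (0.61, 0.0191). A near-identical copy held 20.1% as many counts and had higher means in KO than in WT on each day.

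**Figure D3:**
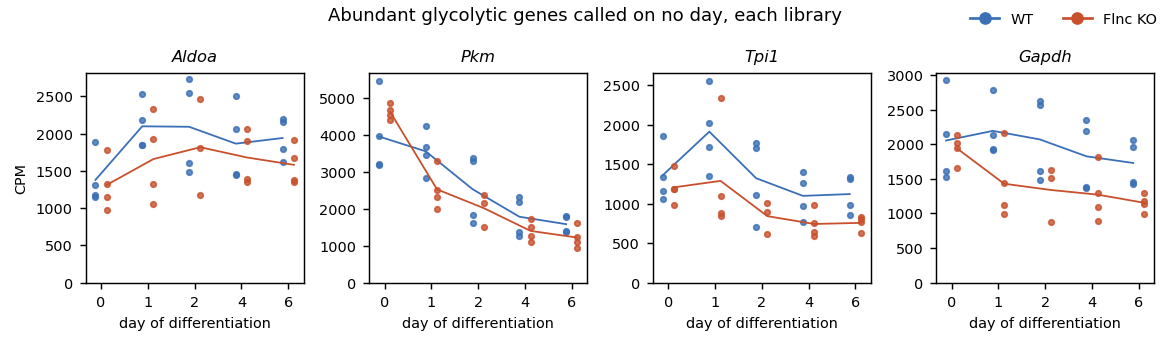
CPM of each library by day for Aldoa, Pkm, Tpi1 and Gapdh, the 4 most abundant members per kb among those called on no day; lines join group means. WT and KO libraries overlap at day 0 in each panel, and KO means lie below WT means from day 1 on.

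Of the genes of lactate formation and export, Slc16a3, Slc16a1 and Ldha were lower and Ldhb was higher in KO on some or all days. Slc16a3 (MCT4, the lactate exporter of glycolytic cells and a HIF target) was nearly absent from KO. WT libraries read 21.9, 16.9, 39.1 and 17.4 CPM and KO libraries 1.13, 0, 0.421 and 0.328 at day 0. At day 6 they read 7.83, 6.09, 14.0 and 9.02 against 0.585, 0, 0.413 and 0. The means between were 47.6 ± 14.9 and 1.13 ± 0.487 at day 1, 23.6 ± 10.5 and 0.351 ± 0.459 (n = 3) at day 2, and 12.3 ± 3.02 and 0.541 ± 0.764 at day 4, and no libraries overlapped on any day. The log2 differences were -5.66, -5.40, -6.00, -4.76 and -5.28 (adjusted p from 1.52e-06 to 1.86e-05), and no alternative or omitted library ended a call.

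Slc16a1 (MCT1, which carries lactate and pyruvate in either direction) was lower in KO at days 0 to 2. It read 218, 205, 122 and 235 CPM in WT and 72.8, 126, 73.2 and 115 in KO at day 0, with WT replicate 4 below KO replicate 3 (-1.04 ± 0.30, adjusted p = 0.000321). At day 1 the means were 207 ± 9.10 and 77.5 ± 2.76 (-1.40 ± 0.04, adjusted p = 3.66e-06), and at day 2 they were 185 ± 51.7 and 94.8 ± 9.17 (-1.02, adjusted p = 0.000956). At day 6 WT libraries read 129, 115, 111 and 96.0 and KO libraries 149, 103, 113 and 90.6. The groups overlapped then, and the differences at days 4 and 6 were -0.23 and -0.06 (adjusted p = 0.424 and 0.855).

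The 2 lactate dehydrogenase genes were called in opposite directions. Ldhb, the heart-type subunit, was the only member called higher in KO on all 5 days. It read 7.82, 7.62, 7.54 and 4.84 CPM in WT and 21.1, 15.1, 16.3 and 13.0 in KO at day 0, and 16.7, 15.2, 17.7 and 13.7 against 36.9, 40.2, 38.6 and 49.9 at day 6. Its log2 differences were 1.20, 0.91, 1.13, 1.21 and 1.32 (adjusted p 0.00300, 0.0193, 0.00636, 0.00130 and 0.000528), with overlap of libraries at day 1 only. The day 1 call was lost when WT replicate 4 or 5, or else KO replicate 1 or 3, was left out (adjusted p 0.0557 to 0.0913) and with only the day 1 groups in the model (0.0915), as was the day 2 call with only its groups (0.0526). Ldha, the muscle-type subunit and a HIF target, did not differ at day 0 by more than its spread, at 1557 CPM ± 250 in WT and 1616 ± 232 in KO (0.00 ± 0.15). It was lower at day 4 (1195 ± 242 and 738 ± 170; -0.78, adjusted p = 0.0492) and at day 6 (1199 ± 316 and 691 ± 102; -0.87, adjusted p = 0.0257). The day 4 call was lost in 6 of 8 fits without 1 library (WT replicates 3, 4 and 5, KO replicates 1, 4 and 5; adjusted p 0.0759 to 0.130) and with no filter (0.0579), and the day 6 call when WT replicate 4 or 5, or else KO replicate 3 or 4, was left out (0.0585 to 0.0818). With the replicate block Ldha was also lower at day 1 (-0.58, 0.0408) and day 2 (-0.77, 0.0206).

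Isozyme balance was compared within each library as the log2 ratio of the 2 genes' CPM plus 0.5, for 9 pairs on 5 days, by an exact two-sided permutation test over libraries. None of the 45 comparisons passed the adjustment over all of them (smallest adjusted p = 0.0559), and 23 had an unadjusted p under 0.05, all at 0.0286, the smallest that 4 libraries against 4 or 3 allow. Ldhb over Ldha, Slc16a3 over Slc16a1 and Aldoc over Aldoa were among them on all 5 days. The Ldhb to Ldha ratio was -7.72 ± 0.37 in WT and -6.59 ± 0.20 in KO at day 0, and -6.16 ± 0.43 and -4.04 ± 0.30 at day 6. In levels per kb of exon, Ldhb made up 0.949% of the pair in WT and 2.09% in KO at day 0, and 2.85% and 11.3% at day 6. Slc16a3 made up 10.3% of its pair with Slc16a1 in WT and 0.498% in KO at day 0, and 6.45% and 0.157% at day 6. The Hk2 share of the hexokinase pair was 29.6% and 14.5% at day 0 and 56.8% and 27.2% at day 6. Exchanging signs within replicate numbers can give no p under 0.125 with 4 pairs. In the permutation test, whether a comparison at 0.0286 passes the adjustment depends on how many others are as small, not on its ratio difference. The lack of calls therefore does not show how far the ratios differ.

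Summed over its 19 genes, the glycolysis class took 1.40% ± 0.335 of WT counts and 1.43% ± 0.136 of KO counts at day 0. Its share was 1.66% ± 0.295 and 1.17% ± 0.371 at day 1, and 0.964% ± 0.159 and 0.757% ± 0.103 at day 6. The HIF class took 0.0976% ± 0.0126 and 0.0903% ± 0.0159 at day 0, 0.189% ± 0.0504 and 0.139% ± 0.0271 (n = 3) at day 2, and 0.138% ± 0.0174 and 0.104% ± 0.0117 at day 6. At day 6 the lowest WT library of the HIF class (0.122%) lay just above the highest KO library (0.120%), whereas the glycolysis class overlapped (0.820% and 0.889%).

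RNA of the factor subunit Hif1a was higher in KO at day 6. Its level was 216 CPM ± 69.6 in WT and 157 ± 33.0 in KO at day 0, and 124 ± 13.8 against 202 ± 17.9 at day 6. The log2 difference ran from -0.49 ± 0.32 at day 0 (adjusted p = 0.102) to 0.63 ± 0.10 at day 6 (adjusted p = 0.0189; 0.0680 without WT replicate 5). KO libraries all lay above WT libraries at day 6, and the groups overlapped at day 0, where WT replicate 4, which stands apart, was lowest. Without that library the day 0 difference was -0.68 (adjusted p = 0.0115), and with the block -0.45 (0.0394). The block also brought the day 4 difference past the threshold (0.42, 0.0444). These are RNA levels, and HIF1A protein was not measured here.

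The prolyl hydroxylase Egln3, itself a HIF target with high expression in muscle, was lower in KO from day 1. It read 40.1, 37.0, 23.8 and 42.8 CPM in WT and 18.8, 36.2, 23.2 and 54.1 in KO at day 0, with overlap, and 223, 130, 163 and 158 against 46.2, 53.0, 41.1 and 45.5 at day 6, without overlap. The log2 differences at days 1, 2, 4 and 6 were -0.86, -1.41, -1.61 and -1.93 (adjusted p = 0.0225, 0.000909, 2.86e-05 and 1.89e-06). The day 1 call was lost without WT replicate 1 or KO replicate 5 (0.103 and 0.0921) and with only the day 1 groups in the model (0.0830). Egln1, the main oxygen sensor of most cells, was lower at day 1 (87.8 ± 19.1 and 56.5 ± 10.7; -0.63, adjusted p = 0.0293) and day 4 (78.6 ± 11.4 and 50.0 ± 8.58; -0.74, adjusted p = 0.00643). The day 1 call was lost when WT replicate 1 or 4, or else KO replicate 3 or 5, was left out (0.0534 to 0.130), with no filter (0.0563) and with only the day 1 groups (0.125). With the block Egln1 was also lower at day 2 (-0.69, 0.00607).

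Car9, the membrane carbonic anhydrase that is among the most HIF-dependent genes, rose in WT at day 1 and was lower in KO from then on. WT libraries read 0.447, 0.211, 0.351 and 0.277 CPM at day 0, 6.13, 3.90, 0.239 and 3.75 at day 1, 10.8, 3.84, 4.45 and 3.33 at day 2, and 0, 0.457, 0.127 and 1.13 at day 6. KO libraries read 0.213, 0.100, 0.0843 and 0.0820 at day 0, and 0, 0, 0.280 and 0 at day 1. All KO libraries of days 2, 4 and 6 had 0 counts. Car9 was therefore at least 116-fold higher in WT at day 2, at least 18.6-fold at day 4 and at least 5.36-fold at day 6. Their adjusted p were 4.54e-05, 0.000574 and 0.0145. The day 6 call was lost without WT replicate 5 (adjusted p = 0.0633) and with the replicate block within each day (0.0670), though numbers did not pair the libraries at day 6. Its bound was 2.95-fold without WT replicate 5 and 3.46-fold without KO replicate 4, and the day 2 bound was 72.3-fold without KO replicate 1 and 74.0-fold without KO replicate 3. At day 1 the fitted difference was -5.54 ± 1.05 (adjusted p = 0.000224), with 1 WT library (replicate 4) below 1 KO library.

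The secreted targets Vegfa and Adm were lower in KO, Vegfa early and Adm throughout. Vegfa, the angiogenic growth factor, read 121, 140, 112 and 113 CPM in WT and 42.7, 59.1, 46.2 and 49.8 in KO at day 0, and 107, 128, 117 and 79.0 against 90.7, 104, 90.8 and 70.9 at day 6. Libraries did not overlap at days 0, 1 and 2, where the differences were -1.33 ± 0.12, -1.23 ± 0.14 and -1.34 ± 0.41 (adjusted p 0.000243, 0.000484 and 0.000626), and overlapped at days 4 and 6 (-0.34 and -0.35; adjusted p = 0.337 and 0.320). The block put day 4 past the threshold (-0.38, 0.0345). Adm, the vasodilator peptide adrenomedullin, read 0.671, 0.421, 0 and 0.0692 in WT at day 0, where all KO libraries had 0 counts, which makes it at least 9.60-fold higher in WT (5.61-fold without WT replicate 1). At day 6 it read 3.23, 1.07, 1.14 and 0.676 against 0, 0.547, 0 and 0 (-3.76, adjusted p = 0.0136). Its differences at days 1, 2 and 4 were -3.57, -3.87 and -4.04 (adjusted p = 0.0141, 0.0184 and 0.00486) without overlap. The day 1 call was lost with the block (-2.99, 0.0512) and without WT replicate 1 (-2.65, 0.0956), the day 2 call without any 1 of the 3 KO libraries (0.0629 to 0.0780), and the day 6 call without WT replicate 1 or KO replicate 4 or 5 (0.0523 to 0.0564).

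Pdk1, P4ha1, P4ha2 and Ankrd37 were called at days 4 and 6 and on no earlier day. Pdk1, the kinase that keeps pyruvate out of mitochondria, stood at 90.9 CPM ± 26.0 in WT and 37.2 ± 21.7 in KO at day 4 (-1.38 ± 0.42, adjusted p = 0.00942, with overlap) and at 92.3 ± 15.5 and 40.1 ± 15.8 at day 6 (-1.29 ± 0.29, adjusted p = 0.0152; 0.0588 without KO replicate 5). The block also called it at days 0, 1 and 2 (-0.78, -0.76 and -1.03; 0.0230, 0.0216 and 0.00980). P4ha1, a collagen prolyl hydroxylase subunit, stood at 266 ± 77.5 and 147 ± 32.2 at day 4 and 275 ± 49.2 and 149 ± 26.7 at day 6 (-0.94 and -0.96; adjusted p = 0.00180 and 0.00146), after 109 ± 35.2 and 127 ± 30.5 at day 0. Ankrd37, a small ankyrin-repeat protein, stood at 6.13 ± 1.75 and 2.77 ± 0.534 at day 4 (-1.23, adjusted p = 0.00861) and at 5.88 ± 2.71 and 2.42 ± 0.415 at day 6 (-1.36, adjusted p = 0.00470), and its exons overlap those of Ufsp2, a more highly counted gene of the opposite strand. Ufsp2 averaged 50.3 CPM in WT and 47.2 in KO at day 4, and 59.4 and 53.4 at day 6. Lrp2bp, which overlaps Ankrd37 on the opposite strand too, averaged 0.485 and 0.2 CPM at day 4, and 0.626 and 0.225 at day 6. Whether reads of these genes were mixed was not tested.

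P4ha2, the second collagen hydroxylase subunit, was lower by smaller amounts, -0.57 at day 4 and -0.62 at day 6 (adjusted p = 0.0402 and 0.0251). The day 4 call was lost in 6 of 8 fits without 1 library (WT replicates 1, 3, 4 and 5, KO replicates 1 and 4; 0.0544 to 0.0931) and with no filter (0.0662), and the day 6 call without WT replicate 4 or KO replicate 4 or 5 (0.0669 to 0.0997). Bnip3, a mitophagy receptor, Ndrg1, a stress-response gene, Hilpda, which binds lipid droplets, the histone demethylase Kdm3a, the MYC antagonist Mxi1 and the flux regulators Pfkfb3 and Pfkfb4, which set the level of an activator of phosphofructokinase, were called on no day. Their differences at day 6 ran from -0.66 for Hilpda and -0.61 for Bnip3 to 0.03 for Mxi1. With the block Bnip3 was lower at day 2 (-0.80, 0.0321) and Pfkfb4 at day 1 (-0.60, 0.0308). With only the day 6 groups in the model, Bnip3 (-0.64, adjusted p = 0.0150) and Hilpda (-0.68, 0.0453) were lower at day 6.

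**Figure D4:**
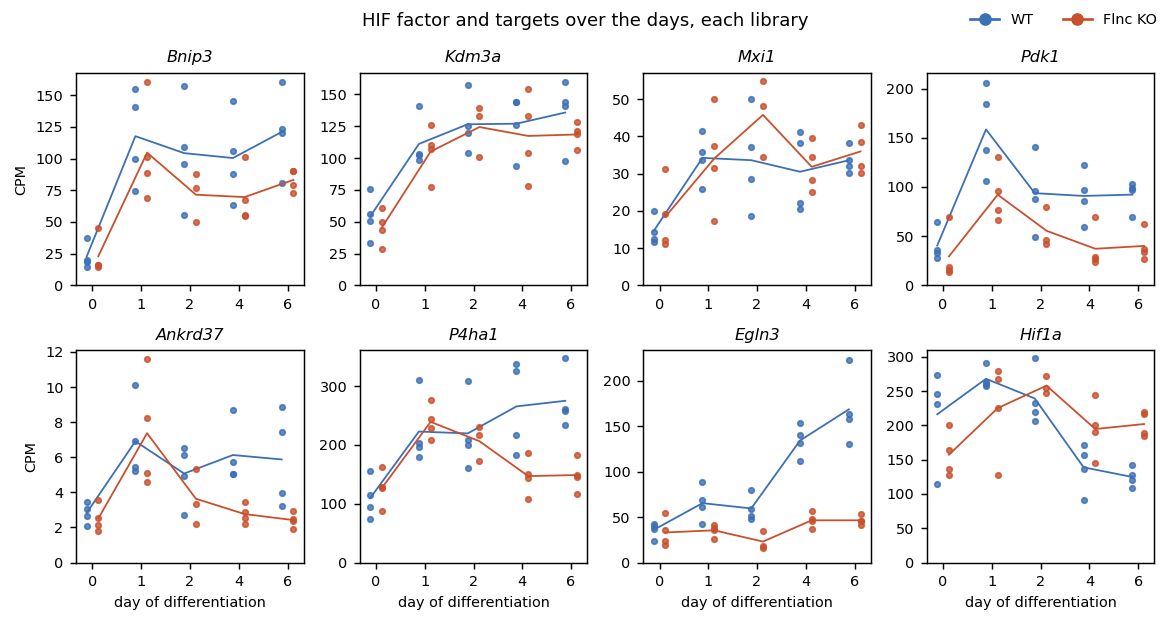
CPM of each library by day for 8 HIF-class members in WT and KO; lines join group means. Bnip3, Kdm3a, Mxi1, Pdk1, Ankrd37 and P4ha1 have higher means on day 1 than on day 0 in each line. Egln3 climbs in WT to 130 to 223 CPM at day 6, when KO libraries lie at 41.1 to 53.0, and Hif1a ends higher in KO.

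After the first day in low serum, 7 of 17 HIF-class genes were higher in WT and 5 of 17 in KO, and no glycolysis gene was called in WT. In WT, 7 members were higher at day 1 than at day 0, all of the HIF class, where 2.32% of all genes were called higher, 1.87% lower and 4.19% in either direction. They were Bnip3 (2.35 ± 0.38, adjusted p = 0.000236), Pdk1 (1.94 ± 0.34, 0.00559), Kdm3a (1.01, 0.00524), P4ha1 (0.99, 0.00952), Mxi1 (1.19, 0.0154), Car9 (3.38, 0.0175) and Ankrd37 (1.24, 0.0341). In KO, 5 HIF-class members were higher at day 1 (4.18% of all genes): Bnip3 (2.23 ± 0.46, adjusted p = 0.000197), Kdm3a (1.21, 0.000543), Ankrd37 (1.58, 0.00503), Pdk1 (1.68, 0.00932) and P4ha1 (0.92, 0.0103). Pkm fell in KO (-0.85, adjusted p = 0.0381; lost without KO day 0 replicate 3, 4 or 5 or KO day 1 replicate 1, 4 or 5, at 0.0620 to 0.161), where 3.81% of genes were called lower and 7.99% in either direction. Bnip3 stood at 22.6 CPM ± 9.96 at day 0 and 118 ± 36.9 at day 1 in WT, and at 22.9 ± 14.8 and 105 ± 39.1 in KO, with no overlap between the days in either line.

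These day 1 counts depend on single libraries and on the pairing. In WT the 7 calls became 3 without WT day 1 replicate 1, 4 without WT day 0 replicate 3 or WT day 1 replicate 5, and 9 without WT day 0 replicate 4 or WT day 1 replicate 4. The WT calls of Car9, Mxi1, Ankrd37 and P4ha1 were each lost in at least 1 such fit (adjusted p up to 0.0772, 0.0739, 0.114 and 0.0647), and those of Bnip3, Pdk1 and Kdm3a in none. In KO the 6 calls became 4 without KO day 0 replicate 3 or 5 and 9 without KO day 1 replicate 3, and Pdk1 was lost without KO day 0 replicate 3 or 5 (0.0514 to 0.0621). With only the 2 groups compared in the model, none of the KO calls remained (adjusted p 0.0904 to 0.222), and in WT those of Ankrd37 (0.0504) and P4ha1 (0.0564) were lost. Replicate numbers paired the libraries of these 2 contrasts, and with them as a block WT had 12 calls, the added ones being Aldoc (1.97, 0.0388), Ldhb (0.84, 0.0427) and Pfkl (0.86, 0.0276) of the glycolysis class, and Egln3 (0.83, 0.0467) and Ndrg1 (0.98, 0.0314). In KO the block added Mxi1 (0.91, 0.00169) and Pfkl (0.76, 0.0363).

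Between day 0 and day 6 the share of members called was close to that of all genes in KO (41.7%) and somewhat above it in WT (58.3%). In WT 21 members differed from day 0, against 49.4% of all genes (27.8% lower, 21.7% higher): 9 glycolysis genes fell and 1 rose, and 8 HIF-class genes rose and 3 fell. In KO 15 differed (43.6% of all genes; 23.1% lower, 20.5% higher): 8 glycolysis genes fell and 1 rose, and 4 HIF-class genes rose and 2 fell. Pkm fell by 1.33 in WT and by 1.95 in KO on the log2 scale (adjusted p = 7.56e-05 and 4.74e-07), Eno1 by 1.77 and 1.33 (1.33e-05 and 0.000644), and Pgam1, phosphoglycerate mutase, by 1.18 and 1.21 (0.000235 and 0.000243). Ldhb was the glycolysis gene that rose in each line (1.19 and 1.32; 0.000742 and 0.000307). Bnip3 rose by 2.45 in WT and 1.84 in KO, and Kdm3a by 1.35 and 1.37 (adjusted p at most 7.76e-05). Egln3 rose in WT (2.25 ± 0.25, adjusted p = 4.66e-08) and in KO stood at 0.47 ± 0.35 (0.161), and P4ha1 rose in WT (1.35, 9.18e-06) and in KO stood at 0.21 (0.478). A joint test of all later days against day 0 called 26 members in WT, or 72.2%, against 48.5% of all genes. In KO it called 18, or 50.0%, against 38.7% of all genes.

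Whether the genotype difference itself changed over the days was tested by the interaction of genotype and day, which called 6 members, against 7.74% of all genes. They were Slc16a1 (adjusted p = 0.00286), Egln3 (0.00986), P4ha1 (0.0148), Car9 (0.0239), Aldoc (0.0269) and Hif1a (0.0383). Hif1a lost the call in 18 of 39 fits without 1 library (0.0506 to 0.0995), with DESeq2 size factors (0.0523) and with no filter (0.0942), Aldoc without WT day 0 replicate 3 or 5 or KO day 0 replicate 1 (0.0680 to 0.0734), and Car9 without KO day 0 replicate 1 (0.0988) and with counts divided by 2 (0.0661). Between day 0 and day 6 the difference fell by 1.78 ± 0.43 for Egln3 (adjusted p = 0.00195), by 1.15 ± 0.34 for P4ha1 (0.0172) and by 1.02 ± 0.23 for P4ha2 (0.0229), and increased by 1.11 ± 0.33 for Hif1a (0.00973) and by 0.97 ± 0.35 for Slc16a1 (0.0205). The P4ha2 value was lost without WT day 6 replicate 4 or KO day 0 or day 6 replicate 4 (0.0546 to 0.0588), and that of Slc16a1 without WT day 0 or day 6 replicate 5 or KO day 6 replicate 1 (0.0572 to 0.0641). Aldoc and Slc2a3 were also called in this contrast, which 9.95% of all genes passed, 4.04% with a negative and 5.91% with a positive change. Hk2, Pfkp, Ldhb, Slc16a3 and Adm, called on all or most days, had adjusted p between 0.433 and 1.00 for genotype by day.

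Genes of the same pathways outside the members were called in both directions. Of 40 further genes of glycolysis and pyruvate handling, 31 were tested, and 4, 4, 4, 8 and 9 were lower and 5, 4, 3, 4 and 5 higher in KO at days 0, 1, 2, 4 and 6. In either direction these are 29.0%, 25.8%, 22.6%, 38.7% and 45.2%. Of all genes, 15.5%, 18.0%, 17.9%, 27.5% and 28.9% were called, likewise in both directions. The 6 with the smallest p over the days included Pdk4, the fasting-induced pyruvate dehydrogenase kinase, which was higher in KO at each day and reached 459 CPM ± 206 against 38.5 ± 13.8 at day 6 (3.50 ± 0.41, adjusted p = 3.42e-09). Pdp1, the phosphatase that opposes it, was higher in KO from day 1 (251 ± 53.4 against 86.8 ± 11.0 at day 6; 1.46, 0.000280). The glucose transporter family gene Slc2a6 was lower from day 1, with a log2 difference of -4.34 at day 2 (2.55e-05), and Emb, a chaperone of monocarboxylate transporters, was lower at days 0 to 2 (6.77 ± 4.44 against 35.7 ± 6.46 at day 0; -2.44, 0.000294). Pfkm, the muscle-type phosphofructokinase, and Bpgm, which makes a bisphosphoglycerate that lowers the oxygen affinity of haemoglobin, were higher in KO at day 0 (0.71, 0.0414; 0.96, 7.68e-05) and lower at day 6 (-1.47, 1.92e-05; -0.81, 0.000305).

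Of 50 further genes of the HIF pathway, 48 were tested, and 7, 7, 3, 12 and 9 were lower and 6, 6, 10, 8 and 10 higher. In either direction these are 27.1%, 27.1%, 27.1%, 41.7% and 39.6%, against 15.5%, 18.0%, 17.9%, 27.5% and 28.9% of all genes. Epas1, which encodes the HIF2 α subunit, had 4 to 13 counts over the WT libraries of a day and was higher in KO on each day. Its KO libraries ranged from 0.425 to 9.35 CPM at day 0 and from 0.292 to 4.10 at day 6 (6.15 ± 0.94 and 4.73 ± 0.99; adjusted p = 0.000727 and 0.00857). Ddit4, a stress-induced inhibitor of mTORC1, was higher in KO on all days, from 62.5 ± 15.6 against 27.1 ± 6.22 at day 0 to 50.5 ± 4.63 against 12.0 ± 6.20 at day 6 (1.15, 0.00500; 2.00, 3.58e-06). Cxcr4, the chemokine receptor, Edn1, the vasoconstrictor peptide, and Zfp395, a zinc finger factor, were higher at day 6 (2.38, 1.60e-07; 4.05, 1.90e-06; 1.95, 6.96e-06). Ak4, a mitochondrial adenylate kinase, was lower on all days, at 2.44 ± 2.33 against 18.6 ± 5.64 at day 6 (-3.06, 0.000101). HIF pathway genes that were lower in KO, such as Ak4 and the members Car9, Adm and Slc16a3, stood beside others that were higher, such as Ddit4, Edn1 and Cxcr4.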

How the data were processed

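RNA of 39 C2C12 libraries (TruSeq stranded mRNA kit, per the labels' protocols) was read from 1 table of whole-number counts per gene, deposited by the authors. Per the submitters' processing notes, FastQC 0.11.9, STAR 2.7.9, featureCounts 2.0.3 and DESeq2 were used, and the genome builds GRCm38 and GRCh38 are named without a role. The annotation and the strand setting of the counting are not given in the sources used here. All 29980 gene identifiers matched GENCODE M21, 10001 had no count, and 1 column that matched no sample was left out. Of the values above 0, 64.4% were even, so mates of read pairs may have been counted separately.

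Groups came from the labels. Counts of all 39 libraries were fitted in 1 edgeR quasi-likelihood model with 10 group means and 29 residual degrees of freedom (R 4.3.3, edgeR 4.0.16, limma 3.58.1), with TMM factors of 0.904 to 1.05 and the filterByExpr filter, which left 13780 genes. Calls required a Benjamini-Hochberg adjusted p under 0.05 over those genes. CPM are counts scaled to 1e+06 per library, and the SE of a log2 difference is that of log2 CPM with a prior count of 2 in the groups compared. Folds against groups with no count use a floor of 3 counts over the group. Intervals and floors cover counting error only. Totals of 6838281 to 28902526 counts make genes of a few counts the least precise.

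Same-numbered libraries were taken as paired where every correlation of their deviations from the group means exceeded 0.1. Between the lines this was so at day 0 (r = 0.134 to 0.339), day 1 (r = 0.287 to 0.568), day 2 (r = 0.133 to 0.393) and day 4 (r = 0.126 to 0.506). It was also so for day 1 against day 0 in WT (0.131 to 0.343) and KO (0.131 to 0.556). It did not hold at day 6 (lowest -0.017). At day 0 the rule held, but KO replicates 3 and 5 correlated more with a WT library of another number.

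Members and lists were chosen with earlier results of these data known. Library values are printed for members called on at least 3 days and for the 4 most abundant per kb called on none. Of the further pathway genes, the 6 of each list with the smallest p over the days are named. The alternatives tried were DESeq2 1.42.0 in place of edgeR, its size factors within edgeR, all genes kept, a replicate block over all days or within each day, counts divided by 2, only the groups compared, and each library left out. A fit without the 2 libraries that stand apart was chosen after seeing the data. The model was tested on simulated data.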

Additional observations from a re-analysis of the deposited data

Results flagged for a closer look

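Single libraries stood far from the other 3 of their group in 9 of 122 groups of 4 that were examined, where chance marks about 1 in 20. Pfkp read 163 CPM in WT day 2 replicate 4 (257 to 261 in the others), and Slc16a1 read 262 in the same library (153 to 163). Ldhb read 4.84 in WT day 0 replicate 5 (7.54 to 7.82). Vegfa was low in replicate 3 at day 4 in both lines, at 102 in WT (149 to 155) and 64.9 in KO (128 to 139). Car9 read 10.8 in WT day 2 replicate 1 (3.33 to 4.45), 0.213 in KO day 0 replicate 1 (0.0820 to 0.100) and 0.280 in KO day 1 replicate 4 (0 in the others). Adm read 0.547 in KO day 6 replicate 3 (0 in the others).

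The difference between KO and WT changed over the days, by edgeR's joint test of genotype by day, for Slc16a1 (adjusted p = 0.00286), Egln3 (0.00986), P4ha1 (0.0148), Car9 (0.0239), Aldoc (0.0269) and Hif1a (0.0383). From day 0 to day 6 the log2 difference changed by 1.11 for Hif1a, 0.97 for Slc16a1, -1.78 for Egln3, -1.15 for P4ha1 and -1.02 for P4ha2. Slc2a3 changed by 4.54 (adjusted p = 0.0353), a call lost in 7 of 16 fits without 1 library (0.0542 to 0.209). Aldoc changed by -6.55 (adjusted p = 0.0171; 0.0511 without KO day 6 replicate 4), a value that depends on the prior count and is no bound, since KO had no count at day 6.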

How the results depend on the processing

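Of 62 member-by-day calls between the lines, 43 were lost under no alternative, 18 were lost when some library was left out and 12 under a setting that kept all libraries, and none reversed. Shares of all genes called under the alternatives are not given here, so the counts that follow are of members only. With the replicate block within each day, 20 members were lower at day 1, 16 were lower at day 2 and 3 were higher at day 4. With only the groups compared in the model, 7 were lower and 0 higher at day 1, 0 were higher at day 2, and 0 were called in KO at day 1 against day 0. Without the 2 libraries that stand apart, 0 were higher at day 1. In WT at day 1 against day 0, DESeq2 called 11 members and the replicate block 12, and DESeq2 called 10 for genotype by day. The causes were not tested.

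Leaving out 1 library at a time gave 7 to 8 lower and 1 to 1 higher members at day 0, 9 to 14 and 0 to 1 at day 1, 7 to 10 and 1 to 1 at day 2, 11 to 14 and 1 to 1 at day 4, 9 to 13 and 1 to 3 at day 6, and 21 to 23 over any day. It gave 3 to 9 members in WT at day 1 against day 0, 16 to 21 at day 6 and 23 to 26 over the days, and in KO 4 to 9, 12 to 19 and 16 to 20. Genotype by day gave 4 to 9, and its day 6 contrast 5 to 7. The isozyme ratios gave 0 to 0. Shares of all genes in the fits without 1 library are not given here. Day 6 numbers did not pair the libraries by the rule used (lowest correlation -0.017). Car9, Adm, Aldoc and Slc2a3 rest on few counts in KO on at least some days.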
